A study of Mus musculus with 6 samples.

Results

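The genes described here are 34 genes of the cell cycle and of DNA replication, listed by name for their roles, with no threshold on a measured value. They were found on the arrays through the accession of each probe, and all 34 had at least 1 probe, 51 probes in all, among 22911 genes that the arrays name. The study profiled the livers of 6 male mice, 3 with a liver-specific knockout of Elovl6 (LKO) and 3 controls, titled Flox, with 1 mouse per one-colour array (n = 3 per group throughout). Elovl6 encodes a fatty acid elongase that turns palmitate into stearate. All 6 mice were kept on a diet rich in sucrose (D11725) for 14 days and had a fast of 4 hours. The labels give neither the age of the mice nor the promoter that drives the deletion.

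The cell cycle runs from a gap phase (G1) through DNA synthesis (S) and a second gap (G2) to mitosis (M). D-type cyclins with Cdk4, and then cyclin E with Cdk2, release the E2F transcription factors, which switch on the replication genes. A later programme, driven by B-Myb and FoxM1, switches on the mitotic genes. Most hepatocytes of an adult liver are out of the cycle and can re-enter it after injury or loss of tissue. Transcripts of the mitotic genes therefore tend to be scarce in bulk liver RNA. In such RNA, fewer cycling cells and less RNA per cycling cell cannot be told apart.

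The 6 arrays lay on 1 slide in 1 scan, between 52.1% and 56.6% of their 59305 spots were well above background, and 0 spots were saturated. Signals below are the scanner software's processed intensities. Log2 values are these signals relative to the array's 75th percentile, a value between 265 and 298. Elovl6 itself read 6364, 12349 and 6624 in the controls, against 62.3, 88.5 and 99.6 in LKO, so each mouse matched its label (log2 change -6.51 ± 0.30, SE, limma adjusted p = 0.00279). All 10 hepatocyte markers were well above background on all 6 arrays. The number of arrays limits the precision, and an exact two-sided permutation test of 3 mice against 3 cannot go below p = 0.1.

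Of the 34 genes, 28 were well above background in all 3 mice of a group and were tested. That took in 8 of 9 G1/S regulators, all 10 replication genes and 10 of 15 genes of S/G2 and mitosis. Of the 28, 27 were above background on all 6 arrays, and Cdk1, the mitotic kinase, missed it on 1 control array. The other 6 were not tested. Bub1b and Kif11, a spindle checkpoint kinase and a spindle motor, were above background on no array. Bub1, a second checkpoint kinase, and Ccne2, a second cyclin E, were each above background on 1 control array and on no LKO array. Aurkb, a kinase of the chromosomal passenger complex, was above background on 2 control arrays (signals 9.55, 21.9 and 32.5) and on none of the LKO arrays (11.1 to 19.5). Kif18a, a kinesin that acts on spindle microtubule ends, read 4.36, 45.7 and 37.7 in the controls and between 3.48 and 3.89 in LKO. With LKO set to the lowest signal well above background, the bound on the control mean over LKO was 1.11-fold for Kif18a and 1.01-fold for Aurkb. The scaled values of the groups overlapped for both genes, through control 1, so the bound does not hold for each control. For Ccne2 and Bub1 the bound came out under 1, so no fold is given.

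None of the 28 tested genes passed an adjusted p of 0.05 in limma, where 0.0141% of all 14170 genes tested passed (2 genes). At an unadjusted p under 0.05 there were 3, 1 higher and 2 lower in LKO, which is 10.7% of the 28 against 11.2% of all genes tested. Over all genes, 5.56% were higher and 5.6% lower at that p. They were Rrm2 and Cdk2, lower in LKO, and Ccne1, higher in LKO. The same 3 were the only tested members whose groups did not overlap on the log2 scale, again 10.7%, against 17.3% of all genes (8.11% with LKO above and 9.21% with LKO below). A share at or below that of all genes is no result about these genes as a set. By sign, 15 had higher and 13 lower values in LKO, with a median log2 change of 0.0077 against 0.0031 over all genes.

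**Figure D1:**
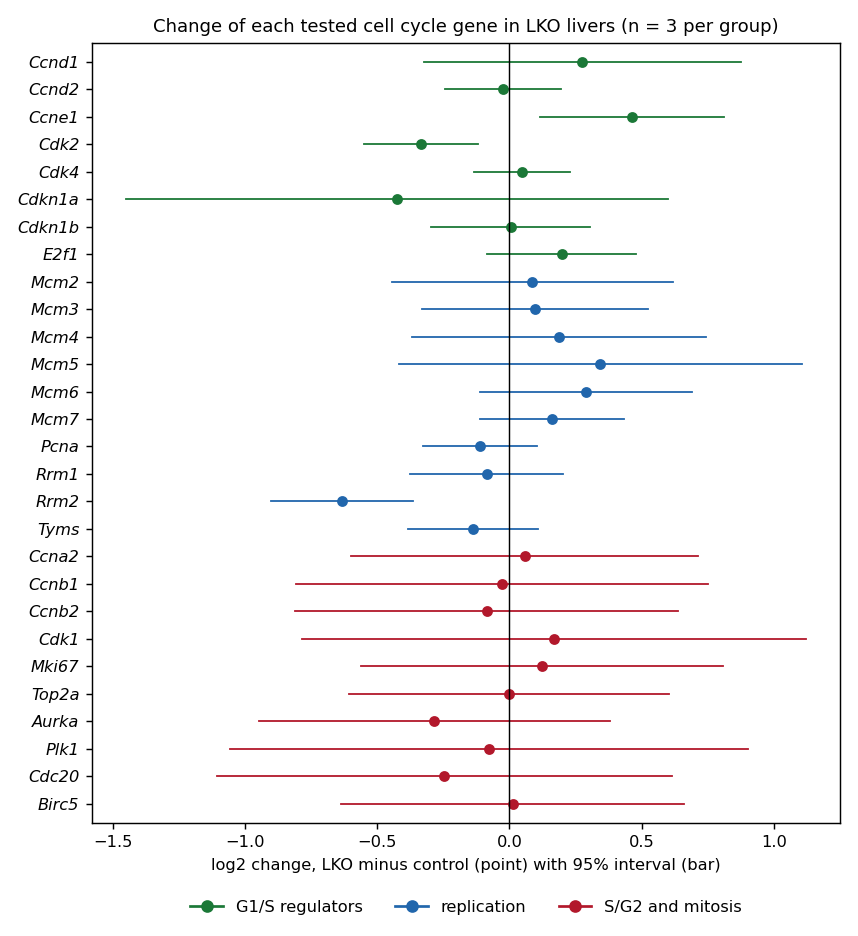
Log2 change (LKO minus control, x axis) of the 28 tested genes with its limma 95% interval, coloured by phase, n = 3 mice per group. The intervals of Ccne1, Cdk2 and Rrm2 lie to 1 side of 0. The interval of Cdkn1a (-1.45 to 0.60) is the widest, followed by that of Plk1 (-1.06 to 0.90).

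Among the G1/S regulators, the median log2 change of the 8 tested genes was 0.026, with 5 higher and 3 lower. Ccne1, the cyclin E that activates Cdk2 at the entry into S phase, read 121, 86.4 and 95.8 in the controls, against 118, 119 and 149 in LKO. The processed signals of the groups overlapped through control 1, and the scaled values did not. Its level was 1.38-fold higher in LKO (log2 change 0.46 ± 0.15, SE, limma adjusted p = 0.341) and did not pass. Cdk2, its kinase partner, read 52.0, 51.9 and 51.0 in the controls, against 38.1, 34.3 and 41.8 in LKO. The controls were nearly equal and all LKO mice lay below them, by 1.26-fold on average (log2 change -0.33 ± 0.09, SE, adjusted p = 0.283), without passing.

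The D-type side of the G1 machinery lay closer to 0. Ccnd1, cyclin D1, which couples growth signals to the cycle, read 1323, 939 and 826 in the controls, against 870, 1523 and 1093 in LKO. The highest and the lowest mouse of each group differed by 1.56-fold in the controls and 1.80-fold in LKO after scaling, so the spread within a group exceeded the 1.21-fold difference between the means (95% interval of the log2 change -0.32 to 0.88). Ccnd2, cyclin D2, had a log2 change of -0.026 (95% interval -0.25 to 0.19) and Cdk4, the kinase of the D cyclins, of 0.047 (-0.14 to 0.23). Larger changes of either gene lie outside these intervals. E2f1, the activating transcription factor of the replication genes, was at 0.20 ± 0.12 (SE).

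The inhibitors of cyclin-dependent kinases gave no difference beyond their spread. Cdkn1a, which encodes p21, the inhibitor induced by p53, read 162, 72.9 and 56.4 in the controls, against 39.9, 83.1 and 65.7 in LKO. Control 1 stood above the other 5 mice, and among the controls the highest and lowest values were 2.79-fold apart after scaling. Its log2 change of -0.43 had a 95% interval from -1.45 to 0.60, which takes in a fall as well as a rise. Cdkn1b, which encodes p27, was at 0.0039 (-0.30 to 0.30).

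**Figure D2:**
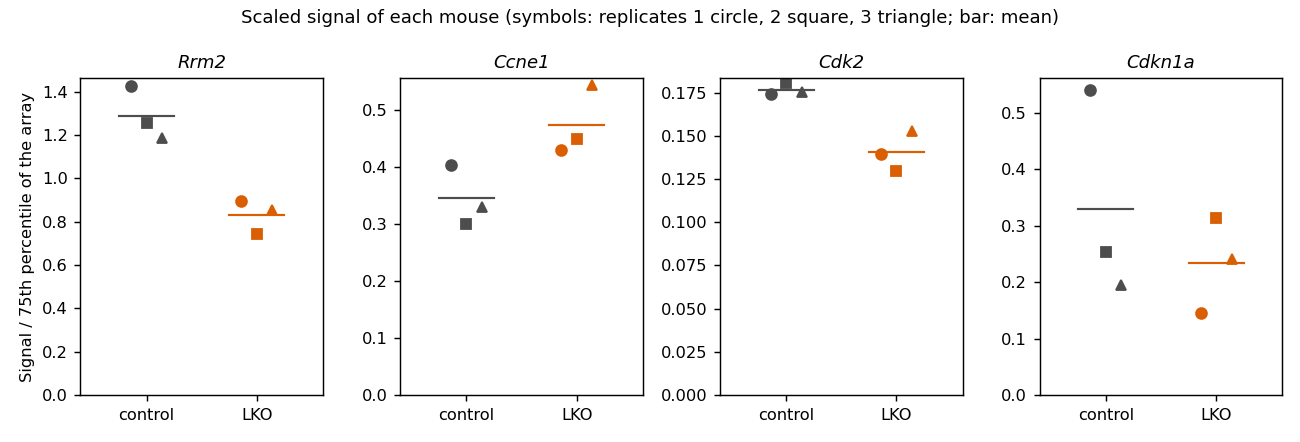
Signal of each mouse divided by the 75th percentile of its array (y axis, from 0) for Rrm2, Ccne1, Cdk2 and Cdkn1a, with bars at the group means. The LKO mice lie below the controls for Rrm2 and Cdk2 and above them for Ccne1, and for Cdkn1a the groups overlap.

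Among the replication genes, Rrm2 had the lowest adjusted p of all 28 genes. Rrm2 encodes the small subunit of ribonucleotide reductase, the enzyme that makes deoxynucleotides. It read 426, 360 and 345 in the controls, against 244, 197 and 234 in LKO. Every LKO mouse lay below every control, and the difference of 1.55-fold (log2 change -0.63 ± 0.11, SE, limma adjusted p = 0.162) did not pass over all genes. Its adjusted p lay between 0.107 and 0.864 over all alternatives tried, and the sign was the same in each. Rrm1, the large subunit of the same enzyme, had a log2 change of -0.085 (95% interval -0.37 to 0.20) with overlapping groups. Tyms, thymidylate synthase, and Pcna, the sliding clamp of the DNA polymerases, were at -0.14 ± 0.10 and -0.11 ± 0.09 (SE). Set against the control mean, these 4 genes averaged -0.30, -0.24 and -0.18 in LKO, against -0.068 to 0.052 in the controls. The groups did not overlap for this mean, but Rrm2, with the largest change, weighs most in it. Taken singly, the groups of Rrm1, Tyms and Pcna each overlapped. The 4 genes are those left of the replication genes once the Mcm genes are set apart, and no test was made of their mean.

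Mcm2 to Mcm7 encode the 6 subunits of the replicative helicase that is loaded at origins in G1. All 6 had higher mean values in LKO, with log2 changes from 0.086 for Mcm2 to 0.34 for Mcm5, and none passed (adjusted p from 0.581 to 0.919). The LKO mice did not read alike. Mcm5 read 73.9, 103 and 91.0 in the controls, against 62.6, 134 and 134 in LKO. Mcm4 read 263, 253 and 282 in the controls, against 197, 376 and 296 in LKO. LKO 1 was the lowest LKO mouse for all 6 genes, against 35.2% of all genes tested. It was the lowest of the 6 mice for 5 of the 6, Mcm7 being the exception, against 13.6% of all genes. LKO 1 was also the lowest of the 6 mice for 3 of the 4 other replication genes. Among genes listed further below, this held for 40% of the p53 and growth arrest genes and 29.3% of the further replication genes. Relative to the control mean, Mcm2 to Mcm7 averaged -0.25, 0.50 and 0.32 in LKO 1, 2 and 3, against -0.098 to 0.058 in the controls.

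The values depended on which LKO mice were in the fit. Without LKO 1, the log2 changes of Mcm2, Mcm4, Mcm5 and Mcm6 were 0.34, 0.45, 0.72 and 0.48, each at an unadjusted p under 0.05 and with adjusted p from 0.124 to 0.308. In that fit, 25% of the tested members and 13.4% of all genes were at an unadjusted p under 0.05. LKO 1 was singled out because it was lowest for the Mcm genes, so leaving it out raises them by construction. These values are a description of how far the Mcm genes rest on that mouse. LKO 1 was also the only LKO array in the slide column that held the controls. Once slide column entered the fit, which then sets LKO 1 alone against the controls, Mcm2 was at -0.43 and Mcm5 at -0.40. Slide column and the difference between LKO 1 and the other LKO mice cannot be told apart.

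Among the LKO mice, LKO 1 had the lowest summed signal for most marker lists. These were the hepatocyte, macrophage, stellate cell, bile duct, and neutrophil and lymphocyte markers, but not the erythroid or endothelial markers. For neutrophil and lymphocyte markers, LKO 1 was the lowest of the LKO mice for only 5 of the 10 markers tested. Of these 10, 5 had higher and 5 lower means in LKO, with log2 changes from -0.90 to 2.43. At an unadjusted p under 0.05 in limma, 3 were higher and 2 lower (50%, against 11.2% of all genes), and 0 passed the adjusted threshold. The sum of the list therefore does not stand for each marker. Of 12 neutrophil and lymphocyte markers on the arrays, 9 were above background on all 6 arrays, and Mpo and Cd79a on none. Their summed signal was 3965, 5348 and 7413 in LKO 1, 2 and 3, and 3748 to 4071 in the controls. Erythroid markers, 8 in all with 7 tested, had the reverse order, with summed signals of 136802, 106042 and 84945 in LKO 1, 2 and 3. Their sums in the controls were 84085, 89672 and 114872, the highest of them in control 3. Stellate cell markers, with all 8 above background, summed to 3958 in LKO 1 and from 4600 to 5645 in the controls, and to 4922 and 5254 in LKO 2 and 3. Bile duct markers, 7 in all with 4 above background on all 6 arrays, summed to 1390, 1961 and 2426 in LKO 1, 2 and 3. In the controls they summed to between 1585 and 1892. The log2 mean of the 5 tested bile duct markers, relative to the control mean, was above all controls in no LKO mouse. It was -0.30, -0.082 and 0.049 in LKO 1, 2 and 3, against -0.18 to 0.11 in the controls. Of the 5, 2 were higher and 3 lower in LKO. The part of these cell types in the Mcm values was not tested.

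The 10 tested genes of S/G2 and mitosis had a median log2 change of -0.015 in LKO, with 4 higher and 6 lower, and none at an unadjusted p under 0.05. The differences ran from -0.28 for Aurka, the kinase of the spindle poles, to 0.17 for Cdk1. Mki67, the proliferation marker Ki-67, read 149, 159 and 94.8 in the controls, against 94.3, 134 and 182 in LKO (log2 change 0.12, 95% interval -0.56 to 0.81). Top2a, the topoisomerase that untangles sister chromatids, was at -0.0020 (-0.61 to 0.60). Changes inside these intervals are not excluded by the values.

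The spread among the controls was wide for these genes. Plk1, a kinase needed for entry into mitosis and spindle assembly, read 179, 134 and 53.7 in the controls, against 103, 82.0 and 103 in LKO. Cdc20, which activates the anaphase-promoting complex, read 465, 355 and 162 in the controls, against 254, 241 and 208 in LKO. Control 3 was the lowest of the 6 mice for both, and controls 1 and 2 were above all LKO mice. Ccnb1 and Ccnb2, the B-type cyclins of Cdk1, showed the same order, with Ccnb1 at 119, 111 and 48.3 in the controls and between 75.6 and 80.0 in LKO. Ccnb2 read 282, 215 and 116 in the controls and between 150 and 183 in LKO. Birc5, survivin of the chromosomal passenger complex, read 526, 424 and 246 in the controls and between 312 and 412 in LKO.

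On the scaled values, control 3 was the lowest of the 6 mice for all 10 tested genes of S/G2 and mitosis, while it was lowest for 17.1% of all genes tested. For Mki67 this holds only after scaling, since its signal was 94.8 in control 3 and 94.3 in LKO 1. After scaling, the highest and lowest controls differed by 1.64-fold for Top2a and up to 3.24-fold for Plk1, whereas the LKO mice differed by 1.02-fold for Ccnb1 and up to 1.93-fold for Mki67. The median SD of the log2 values among the controls was 0.60 for these genes, 0.13 for the G1/S genes, 0.12 for the replication genes and 0.13 over all genes tested. For Cdc20 and Ccna2 a further probe was above background on all 6 arrays, and control 3 was the lowest control for both. The second probe of Cdc20 read 303, 233 and 126 in the controls and between 151 and 209 in LKO. The second probe of Ccna2, the cyclin of S phase and G2, read 61.5, 53.9 and 31.5 in the controls and between 25.3 and 37.3 in LKO. Its log2 change of -0.43 was opposite in sign to the 0.057 of the brighter probe, so the direction of Ccna2 depends on the probe. Since these genes are expressed together, they are not independent counts of the difference between mice.

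**Figure D3:**
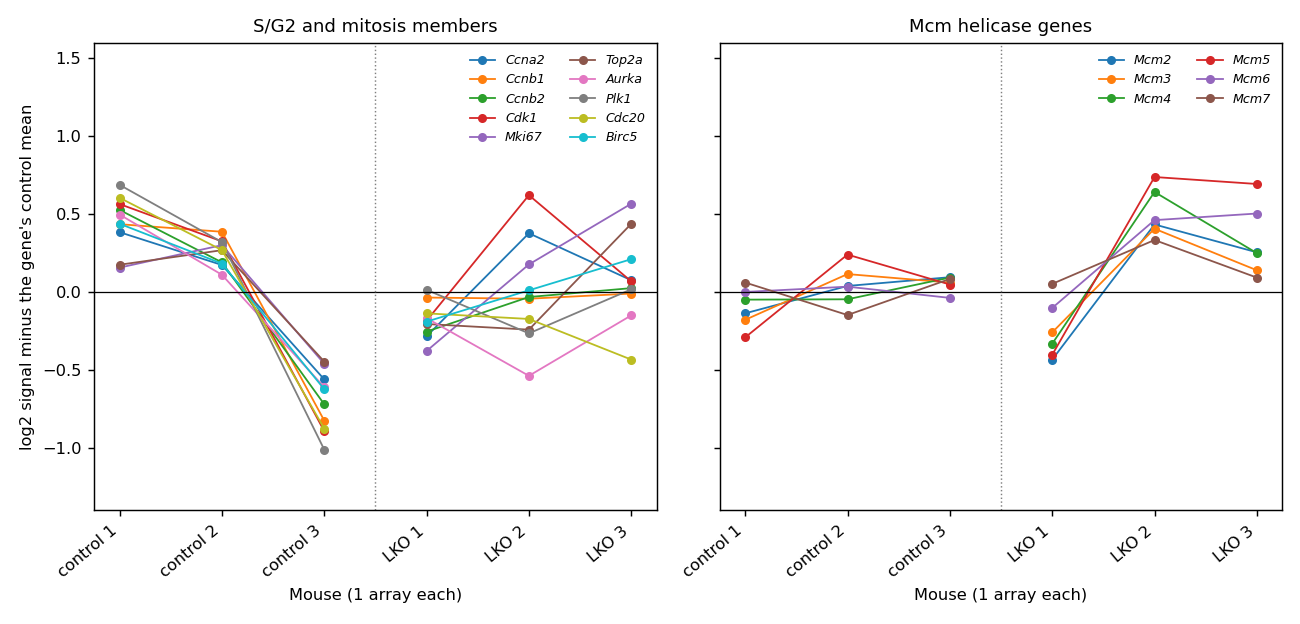
Log2 signal of each gene minus its own control mean (y axis) in each mouse (x axis) for the 10 tested genes of S/G2 and mitosis on the left and for Mcm2 to Mcm7 on the right; lines only link the points of 1 gene. Control 3 is the lowest point of every mitotic gene, and LKO 1 is the lowest point of 5 of the 6 Mcm genes.

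The comparison of LKO with control for the mitotic genes therefore turned on control 3. Without control 3, the median log2 change of the 10 genes was -0.37, and Ccnb1, Cdc20, Plk1, Aurka and Ccnb2 were lower in LKO at an unadjusted p under 0.05, with log2 changes of -0.44, -0.68, -0.58, -0.59 and -0.45. Their limma adjusted p then lay between 0.352 and 0.512, so none passed. In that fit, 28.6% of the tested members and 8.81% of all genes were at an unadjusted p under 0.05. Control 3 was singled out because it was lowest for the mitotic genes. Leaving it out lowers their change and narrows the control spread by construction. These values only describe how far the comparison rests on that mouse. Without control 1 or control 2 the changes of Plk1 were 0.27 and 0.084.

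Kupffer cell and macrophage markers were lowest in the same mouse. Control 3 had the lowest value of the 6 mice for 10 of 11 such markers, and all 11 were above background on all 6 arrays. Their summed signal was 30332, 36318 and 26728 in controls 1, 2 and 3, and between 31049 and 37288 in LKO. The order of controls 1 and 2 differed between the 2 gene groups, since the mitotic genes averaged 0.45, 0.25 and -0.70 relative to the control mean and the macrophage markers averaged -0.0042, 0.26 and -0.26. In LKO, all 11 macrophage markers had higher means, and 0 were past the adjusted threshold in limma. At an unadjusted p under 0.05 there were 2 (18.2%), both higher, against 11.2% of all genes in either direction and 5.56% higher. The part of macrophages and of erythroid cells in the mitotic values was not tested.

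The promoters of the 5 tested mitotic genes with the widest range among the controls are shown. Beside them are those of 2 replication genes, Mcm6 and Rrm2. Control 3 was the lowest of the 6 mice for 0 of the 10 replication genes, so a different order of mice is not particular to these 2. CCAAT is the box bound by NF-Y, TTTGAA the cell cycle genes homology region (CHR) bound by the MuvB complex, and TTTGGCGC, TTTCCCGC, TTTCGCGC and TTTGCCGC are forms of the E2F site. Each was searched on both strands in the 150 bases before the start, in RefSeq promoter windows of GRCm38.p6, and matches are in capitals. The sequences run 5′ to 3′ on the strand of the gene. They lie at chr4:118437344-118437493 (minus strand) for Cdc20, chr9:70421555-70421704 (minus) for Ccnb2, chr13:100786487-100786636 (minus) for Ccnb1, chr7:122159285-122159434 (plus) for Plk1, chr10:69352913-69353062 (minus) for Cdk1, chr1:128359706-128359855 (minus) for Mcm6 and chr12:24708104-24708253 (plus) for Rrm2.
Cdc20: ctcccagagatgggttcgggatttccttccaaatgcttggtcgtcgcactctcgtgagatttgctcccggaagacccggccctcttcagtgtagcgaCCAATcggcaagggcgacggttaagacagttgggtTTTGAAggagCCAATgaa
Ccnb2: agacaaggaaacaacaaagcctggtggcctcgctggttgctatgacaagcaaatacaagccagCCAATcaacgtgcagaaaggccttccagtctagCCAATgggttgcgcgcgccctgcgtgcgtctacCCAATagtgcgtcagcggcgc
Ccnb1: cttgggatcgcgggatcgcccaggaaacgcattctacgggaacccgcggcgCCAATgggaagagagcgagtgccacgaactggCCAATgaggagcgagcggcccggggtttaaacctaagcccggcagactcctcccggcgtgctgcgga
Plk1: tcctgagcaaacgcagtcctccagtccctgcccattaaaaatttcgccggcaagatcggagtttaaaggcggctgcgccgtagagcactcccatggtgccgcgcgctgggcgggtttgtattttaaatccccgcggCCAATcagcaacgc
Cdk1: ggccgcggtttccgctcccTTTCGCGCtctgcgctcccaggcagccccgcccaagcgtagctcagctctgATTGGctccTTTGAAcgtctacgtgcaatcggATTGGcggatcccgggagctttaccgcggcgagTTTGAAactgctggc
Mcm6: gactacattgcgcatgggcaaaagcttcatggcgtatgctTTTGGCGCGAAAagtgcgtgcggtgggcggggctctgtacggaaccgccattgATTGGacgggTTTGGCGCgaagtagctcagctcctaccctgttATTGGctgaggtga
Rrm2: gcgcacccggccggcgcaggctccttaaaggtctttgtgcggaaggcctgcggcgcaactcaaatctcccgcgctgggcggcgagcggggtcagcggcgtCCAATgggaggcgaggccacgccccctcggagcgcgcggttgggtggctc

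Cdc20 holds 1 CHR match between 2 CCAAT matches, Ccnb2 holds 3 CCAAT matches, Ccnb1 holds 2 and Plk1 and Rrm2 hold 1 each. Cdk1 holds 2 CHR matches, 2 CCAAT matches and 1 E2F match. The window of Birc5, a further mitotic gene lowest in control 3, holds no match. Mcm6 holds 3 E2F matches, a pair of which overlap on opposite strands, and 2 CCAAT matches. It was the only 1 of 30 member windows with several E2F matches. Promoter windows were found for 28 of the 34 genes. CCAAT stood in 11 of 13 windows of the S/G2 and mitosis genes (84.6%) and 8 of 10 of the replication genes (80%), 2 of 7 of the G1/S regulators (28.6%) and 24.5% of all 32851 windows. CHR stood in 5 of 13 (38.5%), 1 of 10 (10%) and 0 of 7, against 9.07% of all windows. An E2F form stood in 2, 2 and 1 of them, against 1.24% of all windows. Matches describe these letters only, and a missing match says nothing of the factor. Their part in the order of mice was not tested.

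Further genes of the same pathways were read from lists of general knowledge. In limma, 0 of 34 tested further mitotic genes passed over all genes, 9 had higher and 25 lower values in LKO with a median log2 change of -0.079. At an unadjusted p under 0.05 there were 4 (11.8%), all lower, against 11.2% of all genes in either direction and 5.6% lower. Tacc3, a spindle protein, was 1.25-fold lower (log2 change -0.32 ± 0.10, SE, adjusted p = 0.343) and Cenpa, the histone variant of centromeres, 1.25-fold lower (-0.33 ± 0.11, adjusted p = 0.358). Control 3 was the lowest control for 26 of the 34 (76.5%), against 35.6% of all genes, and the lowest of the 6 mice for 15. Among those 15 was Cdkn3, a phosphatase that acts on Cdk1, which read 147, 115 and 36.9 in the controls and between 74.9 and 97.2 in LKO. Cdkn3 was chosen after its value was seen.

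For further replication genes, 0 of 41 tested passed, 20 were higher and 21 lower, the median log2 change was -0.0024, and 3 (7.32%) were at an unadjusted p under 0.05, against 11.2% of all genes. Tk1, the thymidine kinase that salvages thymidine for DNA, read 741, 703 and 782 in the controls, against 1008, 857 and 1002 in LKO. Every LKO mouse lay above every control, opposite in direction to Rrm2 of the same nucleotide supply, and the 1.39-fold difference did not pass (log2 change 0.47 ± 0.09, SE, adjusted p = 0.192). Cdc6, which loads the Mcm helicase, was at 0.27 ± 0.11 (SE, adjusted p = 0.421). Control 3 was the lowest control for 11 of the 41 (26.8%).

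Of 22 tested further G1/S genes, 0 passed, with a median log2 change of -0.074 and 1 (4.55%) at an unadjusted p under 0.05. That was E2f3, a second activating E2F, at -0.30 ± 0.12 (SE, adjusted p = 0.436), and Cdkn2b, which encodes the inhibitor p15, was at -0.62 ± 0.31 with 2 of 3 LKO arrays above background. In the list of p53 targets and growth arrest genes, 0 of 20 passed, the median log2 change was 0.054, and 5 (25%) were at an unadjusted p under 0.05, 2 higher and 3 lower, against 11.2% of all genes. Sesn1, a stress-induced sestrin, was 1.28-fold lower (log2 change -0.35 ± 0.08, SE, adjusted p = 0.251), with values of 813, 817 and 786 in the controls, against 578, 613 and 564 in LKO. Ccng2, a cyclin linked to arrest, was 1.30-fold lower (-0.38 ± 0.12, adjusted p = 0.330). The groups of both did not overlap.

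Growth signals to hepatocytes were measured beside these. Of 15 tested, 0 passed, the median log2 change was -0.015, and 2 (13.3%) were at an unadjusted p under 0.05, against 11.2% of all genes. Egfr, the receptor of epidermal growth factor, read 7794, 5320 and 6756 in the controls, against 9747, 11671 and 9747 in LKO, a 1.71-fold difference with no overlap (log2 change 0.77 ± 0.16, SE, adjusted p = 0.199). Hgf, hepatocyte growth factor, was 1.43-fold higher (0.52 ± 0.14, adjusted p = 0.278). Neither passed, and Ccnd1 differed by less than its spread in the same livers.

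**Figure D4:**
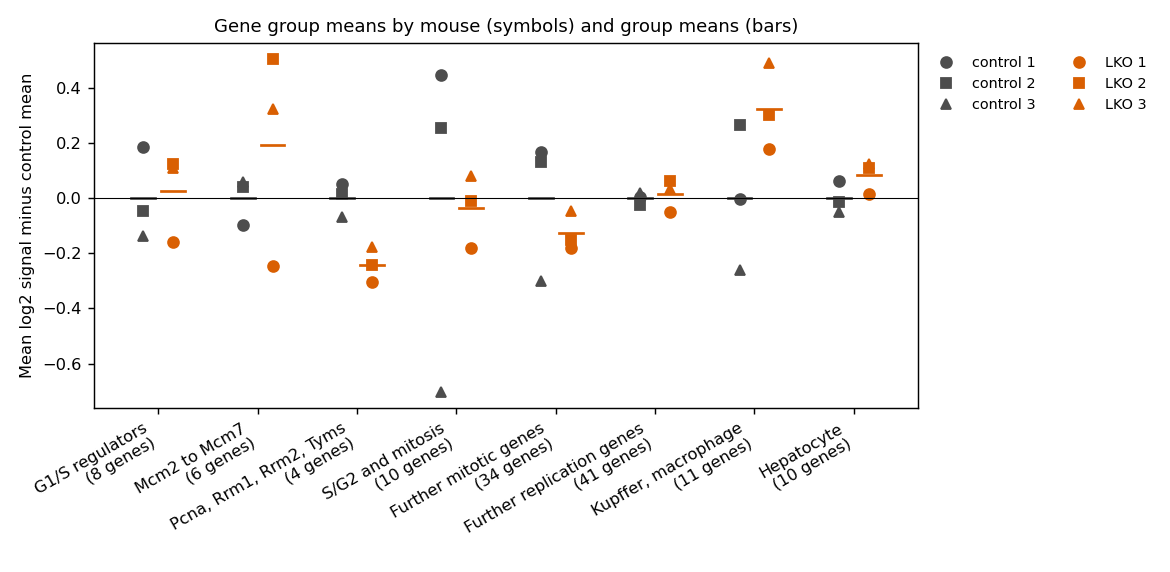
Mean log2 signal of each gene group relative to the control mean (y axis) in each mouse (symbols), with the group means as bars; the number of tested genes stands under each name. Control 3 is low for the genes of S/G2 and mitosis, the further mitotic genes and the macrophage markers. LKO 1 has the lowest mean of the LKO mice in every gene group shown, at -0.25 for Mcm2 to Mcm7 and -0.30 for Pcna, Rrm1, Rrm2 and Tyms.

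Compared by phase, the list means did not separate the groups of mice. Relative to the control mean, the G1/S genes averaged -0.16, 0.12 and 0.11 in LKO 1, 2 and 3 and between -0.14 and 0.18 in the controls. The replication genes averaged -0.27, 0.20 and 0.12 in LKO and between -0.038 and 0.030 in the controls. The genes of S/G2 and mitosis averaged -0.18, -0.0097 and 0.082 in LKO, inside the controls' range of -0.70 to 0.45. LKO 1 had the lowest mean of the LKO mice in all 3 phases.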

How the data were processed

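Liver RNA (0.1 µg per mouse) was labelled with Cy3 and hybridised to one-colour Agilent SurePrint G3 mouse arrays, per the labels. Per the file headers and the submitters' processing notes, the authors scanned 6 arrays and read them with Feature Extraction 11.5.1.1, which wrote background-corrected processed signals, an intensity per spot. The authors' deposited value table held the same intensity times 1 constant per array (2.08 to 2.48), on a linear scale without centring, with array medians from 55.3 to 63.7, and served as an alternative. The flags for signal well above background and for outliers were those of the deposited files.

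Control spots and outlier spots (64 to 111 per array) were left out, spots of 1 probe were averaged, and log2 signals were set relative to the 75th percentile of each array. Of 56605 probes, 32994 (58.3%) had 1 gene symbol through RefSeq accessions, 0 had several and 23611 had none. The probe with the highest mean over the arrays stood for a gene. A gene was tested if that probe was flagged as well above background in all 3 mice of a group. Groups were compared with limma 3.58.1 (R 4.3.3, lmFit and eBayes, two-sided) with Benjamini-Hochberg adjustment over 14170 genes and a threshold of 0.05. A bound sets the group below background, on each array, to the higher of its own value and the lowest signal well above background. Tested on simulated data with 200 of 14170 genes changed in this comparison, 71.3% of 2-fold and 94.1% of 4-fold changes were recovered, and 4.65% of calls were false. The noise was independent between genes, with SDs shuffled over them, and 200 changes ease the adjustment, where the data gave 2 genes. These shares therefore do not hold for the mitotic members, whose median control SD was 0.60.

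The members and all gene lists were chosen with earlier results of these data known. Of each pathway list, the 2 genes with the smallest p were named. Ly6g and Ahsp of the marker lists were not found on the arrays. The labels do not say whether mice shared a litter or a cage, so p-values measure the spread between these mice. Alternatives were median and quantile scaling, normexp correction with an offset of 50 on the median spot signal (the mean signal was not used here), the authors' table, other filters and probe rules, trend and robust eBayes, a replicate block, the slide column and leaving out each mouse. The headers name mm9 as the build of the design, so no coordinates of probes are given. Promoter windows came from RefSeq (GRCm38.p6).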

Additional observations from a re-analysis of the deposited data

How the results depend on the processing

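Under all 16 alternatives, 0 of the tested members passed the adjusted threshold in limma. Rrm2 and Cdk2 stayed lower and Ccne1 higher in LKO in each of them. Their log2 changes reached from -0.69 to -0.47 for Rrm2, from -0.40 to -0.17 for Cdk2 and from 0.28 to 0.58 for Ccne1. Cdk2 was not at an unadjusted p under 0.05 with trend and robust eBayes, nor was Ccne1 without control 2 or without LKO 3. Over all genes, 2 passed in the main setting, against 16 with normexp correction, 13 with trend and robust eBayes, 1 without a filter on dim probes, 1 with the filter on all 6 arrays, 1 with slide column in the fit and 1 to 9 when a mouse was left out. The members at an unadjusted p under 0.05 numbered 3 (10.7%, against 11.2% of all genes). Without the filter, which adds the dim genes Bub1b, Kif11 and Kif18a, there were 6 (17.6%, against 7.17% of all genes). When a mouse was left out there were 2 to 8 (7.14% to 28.6%, against 8.13% to 13.4% of all genes). The median of the replication genes was -0.28 with the slide column and between -0.074 and 0.24 when a mouse was left out. That of S/G2 and mitosis lay between -0.37 and 0.20 and that of G1/S between 0.0015 and 0.089 when a mouse was left out.

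Of the 28 tested members, 21 turned their sign in at least 1 alternative. With slide column in the fit the log2 changes were -0.19 for Birc5, -0.28 for Ccna2, -0.12 for Ccnd1, -0.18 for Cdk1, -0.23 for Cdkn1b, -0.43 for Mcm2, -0.26 for Mcm3, -0.33 for Mcm4, -0.40 for Mcm5, -0.10 for Mcm6, -0.38 for Mki67 and 0.015 for Plk1. That fit compares LKO 1 with the controls, because LKO 2 and LKO 3 fill the second column alone. Median scaling shifts all genes alike and moves the median of all genes to -0.05. With it, Birc5 was at -0.042, Cdk4 at -0.0061 and Cdkn1b at -0.050. With normexp correction Cdkn1b was at -0.037 and Top2a at 0.012, and with the authors' table Top2a was at 0.012. With the mean of all probes Ccna2 was at -0.19 and Mcm7 at -0.12. That mean takes in a further probe at -0.43 for Ccna2 and at -0.40 for Mcm7, the latter above background on no array. The cause of the shifts with normexp correction or the authors' table was not tested.

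Leaving out 1 mouse gave ranges across 0 for 16 members. They were -0.30 to 0.23 for Birc5, -0.22 to 0.25 for Ccna2, -0.44 to 0.19 for Ccnb1, -0.45 to 0.18 for Ccnb2, -0.092 to 0.015 for Ccnd2, -0.68 to 0.056 for Cdc20, -0.28 to 0.45 for Cdk1, -0.74 to 0.0027 for Cdkn1a and -0.078 to 0.12 for Cdkn1b. They were -0.088 to 0.34 for Mcm2, -0.059 to 0.27 for Mcm3, -0.040 to 0.45 for Mcm4, -0.11 to 0.37 for Mki67, -0.58 to 0.27 for Plk1, -0.15 to 0.022 for Rrm1 and -0.22 to 0.13 for Top2a. With the replicate number as a block, 3 genes passed and 3 members (10.7%) were at an unadjusted p under 0.05, against 9.39% of all genes. Deviations of same-numbered mice correlated at 0.045, -0.055 and -0.070 over 14170 genes, against -0.11 to 0.16 for mice of different numbers. These values gave no sign that the numbers pair the mice, and so few mice cannot exclude it.

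With 3 mice per group, the 95% interval of Plk1 ran from -1.06 to 0.90, so changes within that range in either direction are not excluded. The 6 untested members were above background in no LKO mouse and in at most 2 controls.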

Other observations

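The growth arrest genes of the Gadd45 family, named here after their values were seen, did not move as 1 group. Gadd45g read 5351, 16865 and 4807 in the controls, against 1022, 1854 and 4200 in LKO, with every LKO mouse below every control (log2 change -1.81 ± 0.65, SE, limma adjusted p = 0.388). Gadd45b read 77.3, 76.2 and 76.2 in the controls, against 77.2, 121 and 162 in LKO (log2 change 0.69 ± 0.25, SE, adjusted p = 0.393). Gadd45a overlapped between the groups, at 0.79 ± 0.54 (SE, adjusted p = 0.639). None of the 3 genes passed over all genes tested. Tfrc, the transferrin receptor by which dividing and erythroid cells take up iron, read 225, 251 and 204 in the controls, against 135, 142 and 163 in LKO (log2 change -0.51 ± 0.12, SE, adjusted p = 0.237), without passing.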
